A study of Mus musculus with 2 samples.

Results

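Chemokines are small secreted proteins that guide migrating cells through G protein-coupled receptors. The 10 chemokine genes described here were taken by symbol from the 32285 genes of the count matrices: Ccl2, Ccl3, Ccl4, Ccl7, Ccl12, Cxcl1, Cxcl2, Cxcl10, Cxcl12 and Cxcl16. Each symbol matched 1 row in both matrices. Their level, the share of cells with at least 1 unique molecular identifier (UMI, a tag that counts 1 captured transcript) and their co-detection were taken per cell class and library.

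Single-cell RNA was counted at transcript 5′ ends (10x Genomics) in hippocampi of untreated mice aged 4 weeks. There were 2 libraries, 1 of wild-type mice and 1 of Crlf3-mutant mice, which carry L389P in cytokine receptor-like factor 3, a protein-coding change. A library is a pool of 4 hippocampi, made after enzymatic dissociation, debris and myelin removal and a sort for cells that exclude a death stain. The labels name 4 mice, which is read here as 2 per genotype but could also mean 4 per genotype. Each genotype is 1 library without replicates, so no difference was tested and no p-value is given. All intervals are 95% intervals of counting error. They leave out the spread between animals and between preparations. Intervals of levels and of their ratios treat each UMI as independent, so they leave out the spread between cells too.

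The CC ligands Ccl2, Ccl7 and Ccl12 act on the receptor Ccr2 and draw monocytes. Ccl3 and Ccl4 are inflammatory chemokines that draw macrophages and lymphocytes, and Ccl3 acts on Ccr1 among others. Microglia, the resident macrophages of the brain, are known to switch on these genes quickly when disturbed, including by tissue dissociation. Cxcl1 and Cxcl2 draw neutrophils through Cxcr2, Cxcl10 is an interferon-inducible ligand of Cxcr3, and Cxcl16 is a membrane-bound ligand of Cxcr6 that proteases release. Cxcl12 is made constitutively by stromal and vascular cells, signals through Cxcr4 and is scavenged by Ackr3.

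After filtering, 7098 wild-type cells (48973371 UMIs, median 6193 per cell) and 5276 mutant cells (41736212 UMIs, median 7385) remained. A cell was assigned to a class when at least 0.4 of the class's markers had a UMI and that share led every other class by at least 0.2. Class names below stand for cells gated in this way, microglia-like, endothelial-like and so on. The gate gave 4459 wild-type and 3273 mutant microglia, 839 and 819 endothelial cells, 791 and 506 astrocytes, 423 and 147 choroid plexus cells, 142 and 175 cells of the neuron lineage and 122 and 154 mural cells, a vessel class of pericytes and smooth muscle. Smaller classes were ependymal cells (48 and 17), border macrophages of the brain's surfaces and vessels (33 and 15), fibroblasts (24 and 11), lymphocytes (10 and 7) and monocytes or neutrophils (5 and 11). No cell met the gate for the oligodendrocyte lineage, and 202 wild-type and 141 mutant cells met none. In microglia all 10 listed markers had a UMI in the median cell. Cells near the limits of the gate were 29 wild-type and 15 mutant microglia and 17 and 6 border macrophages. The border macrophages held a median of 21 and 18 UMIs of microglial markers beside 35 and 39 of their own. The libraries shared 64 barcode sequences, 54 of them in kept cells. Crlf3 stood at 101 UMIs per 1000000 UMIs (CPM) over all wild-type and 105 CPM over all mutant cells. The mutation changes 1 residue, so this level does not check the genotype.

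The genes lie on chromosomes 5, 6 and 11 of the mm10 genome (GENCODE M21 annotation). On chromosome 11, Ccl2 (chr11:82035571-82037453), Ccl7 (chr11:82045712-82047525) and Ccl12 (chr11:82101845-82103400) stand on the plus strand, with 8.26 kb between Ccl2 and Ccl7 and 54.3 kb between Ccl7 and Ccl12. Further along, Ccl3 (chr11:83647844-83649355, minus strand) and Ccl4 (chr11:83662584-83664683, plus strand) are 13.2 kb apart with no protein-coding gene between them. From Ccl12 to Ccl3 there are 1544 kb with 31 protein-coding genes. On chromosome 5, Cxcl1 (chr5:90891241-90893115) and Cxcl2 (chr5:90903871-90905938) are 10.8 kb apart on the plus strand, and Cxcl10 (chr5:92346638-92348889, minus strand) lies beyond them. Cxcl12 (chr6:117168535-117181367, plus strand) and Cxcl16 (chr11:70453983-70459984, minus strand) stand alone. No stretch of 31 bases was shared between the annotated transcripts of any of the 10 genes.

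The RefSeq promoter table of build GRCm38.p6 held 6 of the 10 genes, matched by symbol. Ccl2, Ccl4, Ccl7 and Cxcl16 were not in it. Promoter windows of 5 genes follow, chosen to set the microglial gene Ccl3 and the vascular gene Cxcl12 beside 3 CXC genes with motif matches. Each is the 200 bases from 250 to 51 bases before the RefSeq start, 5′ to 3′ on the gene's strand. Capitals mark matches to an NF-kB-like motif (GGGANNTNCC), an interferon response element-like motif (GAAANNGAAA) or an AP-1 motif (TGANTCA), searched on both strands.
Ccl3, chr11:83649429-83649628, minus strand: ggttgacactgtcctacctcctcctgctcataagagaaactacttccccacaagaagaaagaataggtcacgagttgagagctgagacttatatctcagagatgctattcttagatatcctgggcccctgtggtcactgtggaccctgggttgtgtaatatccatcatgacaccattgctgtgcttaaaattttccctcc
Cxcl1, chr5:90890995-90891194, plus strand: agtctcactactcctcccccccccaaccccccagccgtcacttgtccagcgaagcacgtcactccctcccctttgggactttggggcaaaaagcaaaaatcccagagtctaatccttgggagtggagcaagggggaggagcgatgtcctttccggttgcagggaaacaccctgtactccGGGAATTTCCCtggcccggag
Cxcl2, chr5:90903649-90903848, plus strand: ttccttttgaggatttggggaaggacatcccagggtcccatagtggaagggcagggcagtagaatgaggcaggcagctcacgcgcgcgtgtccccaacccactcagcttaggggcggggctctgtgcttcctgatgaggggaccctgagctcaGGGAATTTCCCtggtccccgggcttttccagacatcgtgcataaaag
Cxcl10, chr5:92348940-92349139, minus strand: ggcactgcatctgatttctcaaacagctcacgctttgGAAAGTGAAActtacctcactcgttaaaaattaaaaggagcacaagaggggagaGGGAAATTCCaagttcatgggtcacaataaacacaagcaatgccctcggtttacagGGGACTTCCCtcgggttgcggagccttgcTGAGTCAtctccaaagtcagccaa
Cxcl12, chr6:117168285-117168484, plus strand: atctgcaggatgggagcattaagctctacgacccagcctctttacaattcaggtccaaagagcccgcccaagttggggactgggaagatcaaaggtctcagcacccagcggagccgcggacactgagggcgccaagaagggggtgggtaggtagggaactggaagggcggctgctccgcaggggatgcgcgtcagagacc
The same 11 capital bases stood in Cxcl1 and Cxcl2. There the NF-kB-like motif matched on both strands, from 71 to 62 bases before the start on the plus strand in Cxcl1 and from 97 to 88 in Cxcl2, with the minus-strand match shifted by 1 base. Cxcl10 held 2 NF-kB-like matches, 1 interferon response element-like match and 1 AP-1 match. The windows of Ccl3 and Cxcl12 held no match to any of the 3 motifs. The window of Ccl12, which is not shown, held none either. Of all 32851 promoters in the table, 2.55% held the NF-kB-like motif in this window, 2.40% the interferon response element-like motif and 5.57% the AP-1 motif. The motifs were chosen after these sequences had been seen. A match describes letters only and shows no binding.

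The genes fell into a macrophage group and a vascular group by the class that held their UMIs. Of the Ccl4 UMIs, 96.9% (wild type) and 98.4% (mutant) were in microglia. The class also held 96.9% and 98.2% of Ccl3, 95.8% and 98.2% of Cxcl10, 88.0% and 93.2% of Ccl2, 86.9% and 94.1% of Ccl12, and 86.4% and 95.3% of Cxcl16. For Cxcl2 the microglial share was 58.8% and 68.1%, with 26.6% and 15.2% in ungated cells and 12.7% and 15.1% in border macrophages. Ccl7 was mainly in border macrophages, 62.3% and 54.7% of its UMIs in 33 and 15 cells. Endothelial cells held 91.2% and 94.3% of Cxcl12, and 37.5% and 63.5% of Cxcl1. These shares follow the number of cells as well as the level per cell.

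**Figure D1:**
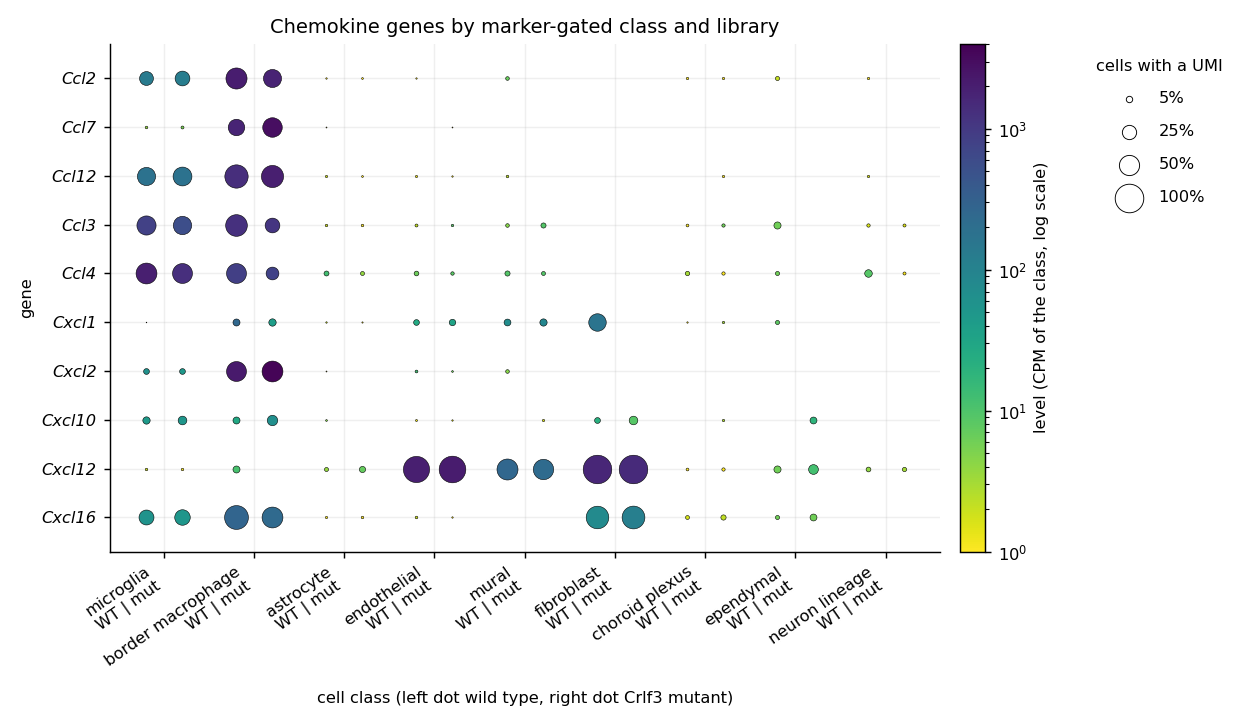
Chemokine genes (rows) in each marker-gated class (columns), wild-type library left and Crlf3-mutant library right in each column. Dot area gives the percentage of cells with at least 1 UMI (not thinned) and colour the level in CPM of the class on a log scale. Ccl3 and Ccl4 are high in microglia and border macrophages, Cxcl12 in endothelial cells and fibroblasts. Border macrophage, fibroblast and ependymal columns rest on 11 to 48 cells each.

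Ccl4 and Ccl3, a neighbouring pair of inflammatory chemokine genes, were the members with the lowest mutant-to-wild-type ratio in microglia. In wild-type microglia Ccl4 reached 1994 CPM (interval 1978 to 2010, from 59750 UMIs), and in mutant microglia 1316 CPM (1303 to 1330, from 34716 UMIs). Its log2 ratio, mutant over wild type with 10 CPM added to each level, was -0.60 (-0.61 to -0.58), a fold of 0.66. Ccl3 reached 809 CPM (799 to 819, from 24242 UMIs) and 557 CPM (548 to 566, from 14680 UMIs), a log2 ratio of -0.53 (-0.56 to -0.50). Neither pair of intervals overlapped, with the spread between cells left out. A gene counted as measured when its higher library reached 50 CPM with 30 UMIs, which 3246 genes did in microglia. Of them 0.0616%, that is 2 genes, were at least 1.5 times lower in the mutant library, and Ccl4 was 1 of the 2. It lay so near this limit that thinning the cells (-0.58) or taking only cells with Xist (-0.51) or with Y-linked transcripts (-0.58) left it within 1.5-fold. The other was Ttr, a transport protein gene that choroid plexus cells express very highly. Ranked from the lowest log2 ratio, Ccl4 was the second and Ccl3 the fourth of the 3246 genes, and Cxcl2 was 15 from the bottom. Between Ccl4 and Ccl3 ranked the heat shock gene Hspa1b (-0.57). Among the members, 7 of 10 were measured in microglia, with a median log2 ratio of -0.09 beside 0.01 over all measured genes. The 6 members below 0 include Ccl12 at -0.01, which ranked only 1188 from the lowest of the 3246 genes. Many genes outside the list thus lay below 0 too. Ccl7, Cxcl1 and Cxcl12 were too low there to be counted.

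Over all microglia, both fewer cells with a UMI and fewer UMIs per such cell went with the lower level of these 2 genes. Before any thinning, 53.4% (wild type) and 48.5% (mutant) of microglia held a Ccl4 UMI, and 45.0% and 41.3% a Ccl3 UMI, although the mutant cells were deeper (median 7753 against 6360 UMIs). With every cell thinned to 2000 UMIs, the Ccl4 share was 43.9% (42.5 to 45.4) over 4391 wild-type cells and 36.9% (35.2 to 38.6) over 3236 mutant cells. Ccl3 was found in 33.8% (32.4 to 35.2) and 29.2% (27.6 to 30.8). Astrocytes, which should lack both genes, gave 1.06% and 0.823% for Ccl4 and 0.265% and 0.206% for Ccl3 when thinned (median depth 6019 and 7601 UMIs before thinning). Positive cells carried a mean of 25.1 and 21.9 Ccl4 UMIs and 12.1 and 10.9 Ccl3 UMIs. Cells with many UMIs were fewer in the mutant library as well. After thinning, 14.5% (wild type) and 9.33% (mutant) of microglia still held 10 or more Ccl4 UMIs, and 4.44% and 2.22% held 10 or more Ccl3 UMIs. The 10% of microglia with the most Ccl4 UMIs held 60.6% and 67.7% of them.

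The lower level was also seen when the microglia were divided by Xist and Y-linked transcripts, and in each microglial cluster with at least 100 wild-type and 100 mutant cells. Among cells with Xist and no Y-linked transcript, Ccl4 was at 1906 CPM over 2023 wild-type cells and 1334 CPM over 1402 mutant cells, and Ccl3 at 796 and 573 CPM. In cells with Y-linked transcripts and no Xist, Ccl4 stood at 1931 CPM in 1251 and 1292 CPM in 1099 cells, and Ccl3 at 802 and 549 CPM. Microglia with neither or both gave 2237 and 1319 CPM of Ccl4 and 843 and 536 CPM of Ccl3. The number of mice behind each subset is not known. In Xist cells, not thinned, the share with a UMI was 51.6% and 49.9% for Ccl4 and 43.4% and 42.9% for Ccl3. In Y cells it was 54.4% and 49.0% for Ccl4 and 48.0% and 40.5% for Ccl3. The mutant cells were deeper in both subsets, so these shares are not at equal depth. Median UMIs were 6315 (wild type) and 7910.5 (mutant) in Xist cells and 7035 and 8072 in Y cells. Leiden clusters made without the 10 genes gave 6 microglial clusters of that size. Ccl4 was lower in the mutant library in all 6, by log2 ratios from -0.83 to -0.44, and Ccl3 in all 6, from -0.89 to -0.41. Clusters 0, 1, 3 and 4 were alike within a library, at 1593, 1522, 1609 and 1575 CPM of Ccl4 in wild-type and 926, 1018, 1019 and 1038 CPM in mutant cells, and clusters 5 and 8 stood apart from them. In cluster 5 (631 and 485 cells) Ccl4 was 4067 and 2994 CPM, and in cluster 8 (341 and 267 cells) 1022 and 570 CPM. Cluster 4, with the fewest immediate early transcripts (16318 and 18634 CPM over 16 genes), held 18.0% of wild-type and 10.6% of mutant microglia. In the small cluster 20 (33 and 13 cells) Ccl3 was the higher in the mutant library, at 648 and 908 CPM, and Ccl4 was 2836 and 1745 CPM.

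**Figure D2:**
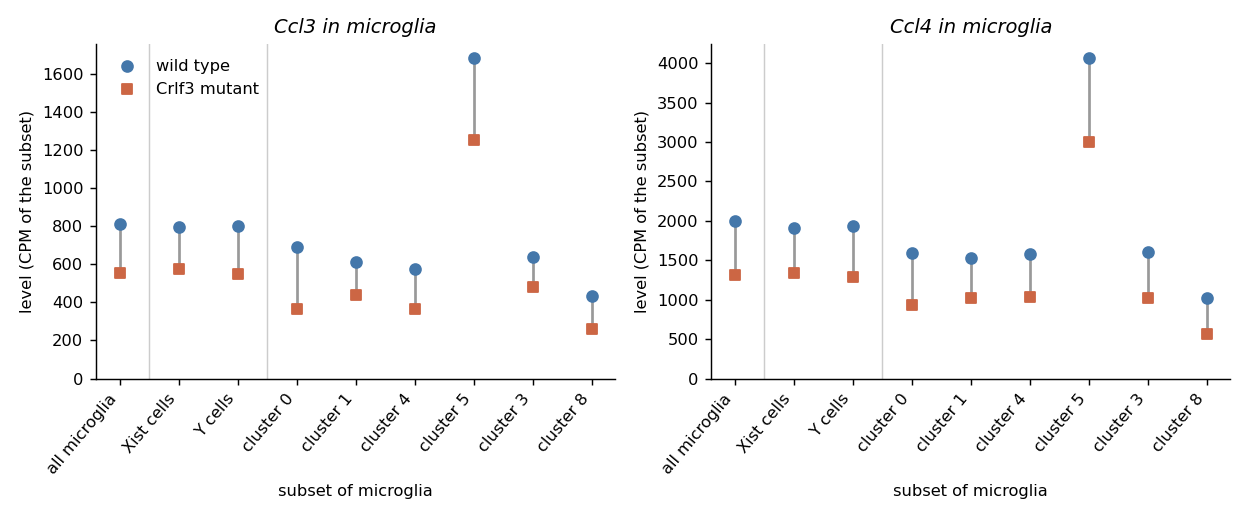
Level of Ccl3 (left) and Ccl4 (right) in CPM of the subset, for all microglia, for cells with Xist or Y-linked transcripts only, and for the 6 microglial clusters of at least 100 cells in each library. Circles are the wild-type and squares the mutant library, joined by a line for the same subset. The square lies under the circle in all 9 subsets shown for both genes, and cluster 5 is highest for both.

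Ccl3 and Ccl4 were detected together more than any other pair with at least 20 cells in microglia. Among thinned cells, 1093 of 4391 wild-type (24.9%) and 638 of 3236 mutant microglia (19.7%) held a UMI of both. Ccl3 was found in 56.7% of Ccl4-positive and 15.8% of Ccl4-negative wild-type cells, and in 53.5% and 15.03% of mutant cells. The phi coefficient, a correlation of detection across cells of 1 library, was 0.43 in wild-type and 0.41 in mutant cells. Detection of the 2 genes was thus tied to a similar degree in both libraries. The ratio of summed Ccl3 to Ccl4 UMIs was 0.406 in wild-type and 0.423 in mutant microglia. Cd83, a surface protein gene of activated immune cells, was the gene outside the list most alike in detection to Ccl4 (phi 0.19 and 0.20) and to Ccl3 (0.15 and 0.17). Atf3, a stress-induced transcription factor gene, came next for Ccl4 (0.13 and 0.11), followed by the apolipoprotein gene Apoe (0.10 and 0.14). For Ccl3 the next were Csf1, the gene of a macrophage growth factor (0.12 and 0.12), and Atf3 (0.12 and 0.13). Cells of 1 library share its free RNA, and all these coefficients describe detection only.

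**Figure D3:**
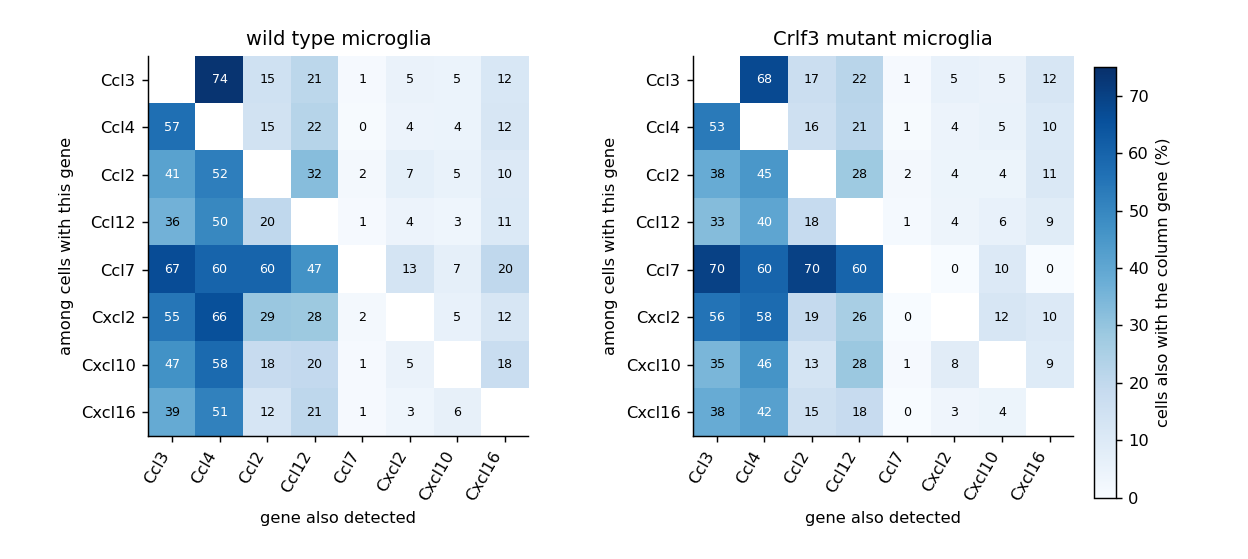
Share of thinned microglia that held the column gene among those that held the row gene, in percent, for 8 of the 10 genes, wild type left and Crlf3 mutant right. Of Ccl4-positive cells 57% (wild type) and 53% (mutant) also held Ccl3. The Ccl7 row rests on 15 wild-type and 10 mutant cells.

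Ccl2 and Ccl12, the Ccr2 ligands, were close between the libraries in microglia. Ccl2 stood at 130 CPM (126 to 134) and 124 CPM (120 to 128), a log2 ratio of -0.06 (-0.12 to 0.00). Ccl12 stood at 177 CPM (172 to 182) and 175 CPM (170 to 180), a log2 ratio of -0.01 (-0.07 to 0.04). Over cells of 1 sex Ccl12 was at 155 and 164 CPM in Xist cells (0.08, -0.01 to 0.16) and at 212 and 188 CPM in Y cells (-0.16, -0.25 to -0.08), a difference between subsets that was not tested. Cells with a Ccl2 UMI were 23.6% and 26.7% (12.3% and 12.9% when thinned), and those with Ccl12 40.6% and 43.6% (19.7% and 19.6% when thinned). In astrocytes, not thinned, the shares were 0.253% and 0.395% for Ccl2 and 0.632% and 0.395% for Ccl12. At equal depth the counting intervals of both shares overlapped between the libraries. Ccl12 was found in 32.3% of Ccl2-positive and 17.9% of Ccl2-negative wild-type cells, and in 28.0% and 18.3% of mutant cells (phi 0.12 and 0.08). Tnf, the gene of tumour necrosis factor, was the gene most alike in detection to both (phi 0.09 and 0.08 for Ccl2, 0.08 and 0.08 for Ccl12). Egr2 (0.07 and 0.07) and Sdc3 (0.05 and 0.07) came next for Ccl2, and Nfkbiz (0.07 and 0.08) and Gpr84 (0.10 and 0.07) for Ccl12. Ccl7 was rare, at 3.84 and 5.50 CPM, in 37 wild-type and 35 mutant microglia. Of the thinned cells with Ccl7, 9 of 15 and 7 of 10 also held Ccl2, although the shares rest on few cells.

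Over all microglia, Cxcl2, Cxcl10 and Cxcl16 differed less than Ccl3 and Ccl4. Cxcl2 stood at 63.2 CPM (60.4 to 66.1) and 48.5 CPM (45.9 to 51.3), a log2 ratio of -0.32 (-0.41 to -0.24). Few microglia held it, 4.10% and 4.06% (2.92% and 2.78% when thinned, beside 0.132% of thinned wild-type astrocytes), with a mean of 10.3 and 9.62 UMIs per positive cell. The log2 ratio of Cxcl2 moved between -0.66 and -0.10 over the alternatives tried. It was -0.66 (-0.82 to -0.50) in Y cells, a larger difference than that of Ccl3 (-0.54) and Ccl4 (-0.58) in the same cells. Cxcl10 stood at 45.3 and 51.8 CPM, a log2 ratio of 0.16 (0.07 to 0.25). It was found in 6.59% and 9.23% of microglia, and in 3.37% and 4.02% when thinned, beside 0.132% of thinned wild-type astrocytes. Cxcl16 stood at 55.8 and 51.8 CPM, a log2 ratio of -0.09 (-0.18 to 0.00), in 27.4% and 29.5% of microglia (10.1% and 9.12% when thinned), beside 0.632% and 0.791% of astrocytes that were not thinned. Gadd45b, a stress-response gene, was most alike in detection to Cxcl2 (phi 0.11 and 0.10), Gpr84, an immune-induced receptor gene, to Cxcl10 (0.08 and 0.09), and Apoe to Cxcl16 (0.04 and 0.06). Next came Tnf (0.10 and 0.08) and Il1b (0.10 and 0.08) for Cxcl2, and Rrad (0.06 and 0.06) and Gadd45b (0.06 and 0.06) for Cxcl10. For Cxcl16 they were Itgb3bp (0.04 and 0.06) and Lgals3 (0.04 and 0.05). All these coefficients are weak in sparse counts. Cxcl1 gave 12 UMIs in 3 of 4459 wild-type microglia and none in 3273 mutant microglia, which allows a share of cells with a UMI of up to 0.0917% (3 counts of the total).

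**Figure D4:**
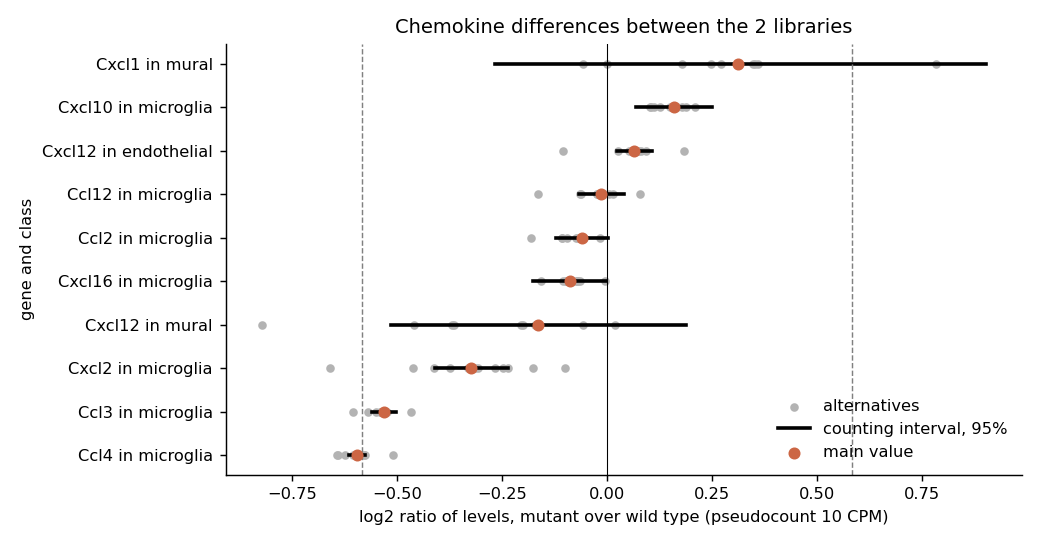
Log2 ratio of levels, mutant over wild type, for each member in each class where it was measured (10 CPM added to each level). Orange points are the values reported, black bars their counting intervals of 95%, grey points the alternatives, and dashed lines mark 1.5-fold. Ccl4 and Ccl3 in microglia lie lowest, at -0.60 and -0.53, with every alternative below 0, and Cxcl12 in endothelial cells lies at 0.06 with alternatives on both sides of 0.

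Other genes of these pathways in microglia were mostly close between the libraries. Over all measured genes 0.123% were past 1.5-fold in either direction, so a short list of genes would seldom hold one. Among 16 NF-kB cytokine and feedback genes, 15 were measured and none was past 1.5-fold. Their median log2 ratio was -0.05, beside 0.01 over all measured genes. The largest were Nfkbid, an inhibitor of NF-kB (-0.30), the interleukin genes Il1b (-0.16) and Il1a (-0.14), and Nfkb1, an NF-kB subunit gene (0.14). All 16 immediate early genes, which tissue dissociation can induce, were measured and none was past 1.5-fold (median -0.03, summed 39625 and 39031 CPM). Among them Nr4a1 was at -0.34 and Atf3 at -0.15. Of 10 heat shock genes 8 were measured, none past 1.5-fold (median 0.07, summed 4359 and 4694 CPM). Hspa1b was at -0.57, which ranked between Ccl4 and Ccl3. Dnajb1 was at 0.30, Dnaja1 at 0.17 and Hspa8 at 0.14. Whether handling of the pools had a part in the Ccl3 and Ccl4 values was not tested. The interferon list had 1 measured gene of 12, Bst2, at -0.10. The chemokine genes Ccl6 and Ccl9 were at -0.10 and -0.04. Among receptors, the fractalkine receptor Cx3cr1 stood at 2567 and 2635 CPM (0.04), and Ccrl2, an atypical receptor, at 187 and 150 CPM (-0.30). Of 8 genes for release and retention of chemokines, Adam10, a protease that releases Cxcl16, was at 0.05, the protease gene Adam17 at 0.13 and the proteoglycan gene Sdc4 at -0.21.

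Border macrophages held Ccl2, Ccl7, Ccl12, Cxcl2 and Cxcl16 at levels above those of microglia in both libraries. They were 33 wild-type and 15 mutant cells (median depth 4976 and 4953 UMIs). Ccl2 stood at 2060 and 1799 CPM, Ccl7 at 1763 and 2981 CPM, and Ccl12 at 1342 and 2009 CPM. Cxcl2 stood at 2291 and 3729 CPM, in 48.5% and 53.3% of the cells, and Cxcl16 at 281 and 236 CPM. Cxcl1 was at 253 and 39.4 CPM, of which 1 wild-type cell held 91.1%, and the mutant value rests on 3 UMIs. Ccl3 was at 1280 and 1103 CPM and Ccl4 at 865 and 788 CPM, but a single mutant cell held 82.1% of the Ccl3 and 96.7% of the Ccl4 UMIs of its class. Ccl3 was above microglia in the 13 wild-type Y cells (1821 against 802 CPM) but below in the 6 wild-type Xist cells (400 against 796 CPM) and the 5 mutant Y cells (128 against 549 CPM), so its order against microglia is not read here. Ccl3 per Ccl4 UMI was 1.48 and 1.40 in the gated cells, against 0.406 and 0.423 in microglia. With so few cells, 1 cell can set a level, and no difference between the libraries is read here. The Leiden cluster led by border macrophage markers (83 and 27 cells) gave 886 and 1239 CPM for Ccl2, 716 and 1487 for Ccl7, 2446 and 2940 for Cxcl2, 952 and 842 for Ccl3 and 1730 and 694 for Ccl4. It includes cells that the gate left out, and in its wild-type cells Ccl4 was above Ccl3, the reverse of the gated cells.

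Cxcl12 was highest in endothelial cells and fibroblasts and close between the libraries. Endothelial levels were 2017 CPM (1974 to 2060, from 8499 UMIs) in wild-type and 2110 CPM (2068 to 2152, from 9891 UMIs) in mutant cells, a log2 ratio of 0.06 (0.02 to 0.11). Of the 3577 genes measured in endothelial cells, 0.224% were past 1.5-fold, and Cxcl12 was not among them. A Cxcl12 UMI was found in 84.0% and 86.9% of endothelial cells, and in 75.8% and 77.7% when thinned, beside 0.661% and 2.06% of thinned astrocytes. The level differed within the class, between clusters made without the gene. Cluster 9 (289 cells in each library) held 3001 and 3041 CPM and cluster 6 (535 and 520 cells) 1454 and 1602 CPM. The gene most alike in detection was Hey1, a Notch target gene (phi 0.17 and 0.20 over 814 and 799 thinned cells), followed by Rgcc (0.14 and 0.15) and Prss23 (0.14 and 0.14). Fibroblasts gave 1636 CPM over 24 wild-type cells and 1476 CPM over 11 mutant cells, each cell with a UMI. The fibroblast and endothelial intervals overlapped in neither library (1475 to 1809 and 1261 to 1717 CPM in fibroblasts). They leave out the spread between these few fibroblasts. Mural cells stood lower, at 257 and 228 CPM (log2 ratio -0.16, -0.51 to 0.19), and 5.98% of 3531 genes measured there were past 1.5-fold. All other classes of at least 100 cells were below 8 CPM. Of its receptors, Ackr3 stood at 369 and 368 CPM in endothelial and 597 and 730 CPM in mural cells. Cxcr4 stayed under the limit of 50 CPM in every class of at least 100 cells, and was highest among these in the neuron lineage, at 44.8 and 34.6 CPM in 23.2% and 27.4% of cells.

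Cxcl1 was found in few endothelial and mural cells, and not only there. Border macrophages, fibroblasts and ungated cells held 15.6%, 13.2% and 13.5% of its wild-type UMIs. Their parts of its mutant UMIs were 1.24%, 0% and 6.64%. In endothelial cells it stood at 25.6 CPM (21.0 to 30.9) in 34 cells (4.05%) and 32.6 CPM (27.7 to 38.2) in 42 cells (5.13%), beside 0.0673% of wild-type microglia. In mural cells it stood at 70.4 CPM (47.8 to 99.9) in 7 cells and 89.9 CPM (68.3 to 116) in 10 cells, a log2 ratio of 0.31 (-0.27 to 0.90). In fibroblasts, 9 of 24 wild-type cells held 38 UMIs (165 CPM) and none of 11 mutant cells held any, which allows a share of cells with a UMI of up to 27.3% by the same limit. Cxcl2, its neighbour on chromosome 5, was at 12.8 and 6.61 CPM in endothelial cells. Among thinned endothelial cells with Cxcl2, 4 of 7 and 2 of 2 also held Cxcl1, against 2.48% and 2.76% of those without it. This rests on 6 cells in all.

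In the remaining classes of at least 100 cells Ccl3 and Ccl4 were low. Fibroblasts held 18 and 13 Cxcl16 UMIs in 24 and 11 cells. The Leiden cluster led by fibroblast markers (10 and 9 cells) gave 65.9 and 98.3 CPM of Cxcl16, above the 55.8 and 51.8 CPM of microglia. The 5 wild-type monocytes or neutrophils held 5 Cxcl2 UMIs and the 7 mutant lymphocytes 6 Ccl4 UMIs, too few to read a level. Astrocytes held 12.1 and 3.78 CPM of Ccl4 and 1.85 and 1.01 CPM of Ccl3. For 100 UMIs of microglial markers there were 8.28 and 5.43 Ccl4 UMIs in microglia, 5.38 and 2.60 in astrocytes and 5.10 and 6.52 in endothelial cells, where 1 mutant cell held 70.7% of the Ccl4 and 86.0% of the Ccl3 UMIs. The neuron lineage held 11 and 2 Ccl4 UMIs in 142 and 175 cells (12.8 and 1.87 per 100 marker UMIs), and the choroid plexus class 16 and 2 (3.69 and 0.709). Ccl3 did not share this order. It gave 2 and 3 UMIs in the neuron lineage (2.33 and 2.80 per 100 marker UMIs). In the choroid plexus class it gave 4 and 14 (0.922 and 4.96), against 3.36 and 2.29 per 100 in microglia. Fibroblasts held no UMI of Ccl3 or Ccl4 beside 178 and 107 UMIs of microglial markers. The ratio thus differed between classes, in part on few UMIs. The part of free RNA and of uncalled doublets in these counts was not tested.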

How the data were processed

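The deposited files are matrices of UMI counts, without normalization, over genes and barcodes. Per the labels' protocols, the authors made them with Cell Ranger 6.1.1 on an mm10 reference, and per the submitters' processing notes Partek was also used, without a role given there. Cells needed 500 genes, 1000 UMIs and no more than 10% mitochondrial UMIs. Doublets called by Scrublet (scanpy 1.11.5, expected rate 0.06), 148 wild-type and 77 mutant, were removed.

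For each class and library, the counts of a gene were added up and divided by the total of all genes (CPM). Counts come from transcript 5′ ends, so levels are not divided by length. Log2 ratios add 10 CPM. Intervals are exact Poisson intervals for sums and Clopper-Pearson intervals for shares, and the limit beside a count of 0 is 3 counts of the total, for counting error only. Cells under 2000 UMIs (162 and 120) were left out of thinned values. Clusters used Leiden (leidenalg 0.10.2, 2000 variable genes without the 10 chemokine genes, 30 components, 15 neighbours, resolution 1). The 7 gene lists hold 106 symbols, of which 103 matched once. The 3 genes most alike in detection to each member (at least 20 thinned positive cells in each library) and up to 4 measured genes of each list with the largest log2 ratio in microglia were named, except that 1 gene met by this rule is not reported here. Ttr was named after its value had been seen. The pipeline was tested on simulated data. The members, markers and lists were chosen with earlier results of these data known, and the numbers of the gate were set after the files had been read. Alternatives covered scaling, thinning, cell filter, doublets, gate, clusters, pseudocount, low-count filter, per-cell means and cells of each sex.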

Additional observations from a re-analysis of the deposited data

Results flagged for a closer look

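Cxcl12 in endothelial cells took opposite directions in the 2 sex subsets. In cells with Xist and no Y-linked transcript the level was 1970 CPM over 258 wild-type cells and 2239 CPM over 289 mutant cells, a log2 ratio, mutant over wild type, of 0.18. In cells with Y-linked transcripts and no Xist it stood at 1889 CPM in 189 and 1757 CPM in 200 cells, a log2 ratio of -0.10. Each subset comes from the mice of 1 pool, and the difference between the subsets was not tested.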

How the results depend on the processing

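The ratios of Ccl3 and Ccl4 in microglia stayed below 0 in all 13 alternatives run for each, from -0.61 to -0.47 for Ccl3 and from -0.64 to -0.51 for Ccl4. Values that moved beyond the counting interval were -0.47 (Ccl3) and -0.51 (Ccl4) in Xist cells, -0.58 (Ccl4) in Y cells and -0.62 (Ccl4) with per-cell CPM means. Alternatives chosen after seeing the data gave -0.57 and -0.64 without the 10 highest cells of the gene, and -0.61 and -0.64 as a mean within the 6 microglial clusters. Ccl4 lies so near the threshold that the count of members past 1.5-fold in microglia was 1 as reported and 0 with thinned cells (5 measured) and in Xist cells (6 measured), and in Y cells it was 1 through Cxcl2 (-0.66), not Ccl4. Co-detection of Ccl3 and Ccl4, mutant minus wild type, was -5.18 percentage points, -2.89 in Xist cells and -7.28 in Y cells. Cxcl12 in endothelial cells was 0.06, 0.18 in Xist cells and reversed to -0.10 in Y cells. Shares of cells reversed on thinning for Ccl12, from 2.95 to -0.14 points, and for Cxcl16, from 2.11 to -0.95 points, where mutant cells were deeper. The cause of the other moves was not tested. Of 159 alternatives for the other results, 139 stayed within counting error. Scaling by the median of ratios shifted all genes by 0.01 in microglia. No paired analysis was possible because each genotype has 1 library. Depth limits Ccl7 and Cxcl1 in microglia and every class under 100 cells.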
